A study of Mus musculus with 5 samples.

Results

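The 9 genes described here code for muscle LIM proteins and for parts of the muscle sarcomere, and they are 9 of the 21259 cellular genes of the deposited expression table. They are the cysteine and glycine-rich protein genes Csrp1, Csrp2 and Csrp3, the actin-binding LIM protein genes Ablim1 and Ablim3, the desmin gene Des, and the troponin genes Tnnt2, Tnni1 and Tnnt3. They were picked by symbol, with the values of the comparison below already known, so their levels are given as a description and without a test. The cells were NIH3T3, an established mouse fibroblast line, and every library came from NIH3T3 cells with stable expression of a CRISPR activator built on dCas9, a Cas9 protein that binds DNA without cutting it. A guide RNA (sgRNA) plasmid was transfected, and total RNA was taken 48 h later. The control group received a scramble sgRNA (2 libraries), and the other group an sgRNA directed at the promoter of LINE-1, an abundant retrotransposon (3 libraries). Whether the activator line is 1 clone, and whether libraries of a group came from separate cultures, is not stated in the labels. The p-values therefore measure the spread between these libraries, which may be technical.

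LIM domains are zinc-binding folds that hold proteins together, and many LIM proteins sit on actin filaments. In striated muscle Csrp3, the muscle LIM protein, is found at the Z-disc, the border of the sarcomere where actin filaments are anchored, while Csrp1 and Csrp2 are its relatives in smooth muscle and in other mesenchymal cells. Desmin is the intermediate filament protein that links neighbouring Z-discs, and the troponin complex (subunits C, I and T) makes the thin filament respond to calcium. Fibroblasts are not known as a site of sarcomere assembly.

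The sequences before the start sites of Csrp3, Des and Tnnt2 are shown because these genes had the largest increases among the 9. Each is the 250 bases before the first RefSeq start on GRCm38.p6, read 5′ to 3′ on the gene's strand. They lie at chr7:48848052-48848301 on the minus strand for Csrp3, at chr1:75360042-75360291 on the plus strand for Des and at chr1:135836084-135836333 on the plus strand for Tnnt2. Capitals mark CANNTG, the E-box letters read by MyoD-type factors among others, and CATTCC, the letters of the TEAD site, each searched on both strands.
Csrp3: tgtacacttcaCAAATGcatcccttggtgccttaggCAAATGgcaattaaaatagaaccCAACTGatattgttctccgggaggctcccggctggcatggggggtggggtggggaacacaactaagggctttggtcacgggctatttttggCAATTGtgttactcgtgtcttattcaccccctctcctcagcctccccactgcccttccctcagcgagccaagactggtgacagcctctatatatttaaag
Des: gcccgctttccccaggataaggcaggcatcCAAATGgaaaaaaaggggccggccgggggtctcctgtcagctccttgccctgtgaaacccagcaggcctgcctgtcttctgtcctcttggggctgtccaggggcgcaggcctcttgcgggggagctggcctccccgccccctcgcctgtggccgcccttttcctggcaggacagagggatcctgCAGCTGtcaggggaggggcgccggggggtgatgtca
Tnnt2: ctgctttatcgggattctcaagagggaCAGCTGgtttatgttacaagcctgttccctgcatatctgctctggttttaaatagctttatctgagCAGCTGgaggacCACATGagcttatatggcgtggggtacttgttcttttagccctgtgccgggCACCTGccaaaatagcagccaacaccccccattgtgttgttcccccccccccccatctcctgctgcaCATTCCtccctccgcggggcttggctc
The Csrp3 window holds 4 copies of CANNTG, the Des window 2 and the Tnnt2 window 4, and the Tnnt2 window also holds 1 CATTCC. Of 32851 mouse promoter windows of the same length, 66.2% hold CANNTG and 12.6% hold CATTCC. Neither TATAAA nor the CArG box of SRF nor the MEF2 site, present in 12.4%, 1.47% and 2.92% of all windows, was found in these 3 windows, which says only that those letters are not in them. Across all starts of the 6 genes matched in the RefSeq table (Csrp1, Csrp3, Ablim1, Des, Tnnt2 and Tnni1), the CArG box and the MEF2 site were likewise not found, and TATAAA was found only before 2 starts of Ablim1.

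All values below are normalized read counts, given as the mean ± SD with n = 2 scramble and n = 3 LINE-1 sgRNA libraries. Dividing them by the value of 1 read gave 30681384 to 45596490 reads per library. Changes are LINE-1 sgRNA minus scramble on the scale of log2(value + 1), and a gene is called when limma's adjusted p over all tested genes is below 0.05. Tests covered the 14337 genes that averaged 10 or more across all 5 libraries. Of these, 18.2% were called higher and 25.4% lower with LINE-1 sgRNA, 43.5% in all, so a call in either direction was common in this comparison. The balance turns with the scaling: TMM gave 2982 higher and 2620 lower, equal library totals 3280 and 2136, edgeR 3039 and 2583, and DESeq2 2808 and 2430. Of the 9 genes 8 passed the filter, Csrp3 only through the LINE-1 sgRNA libraries, and Ablim3 did not. In the fit of all genes 4 were called higher (Csrp3, Des, Tnnt2 and Tnni1), 2 lower (Csrp1 and Csrp2) and 2 not called (Ablim1 and Tnnt3). Since the genes were chosen on this contrast, nothing is read from these counts. The groups did not overlap in any of the 8, as for 61.8% of all tested genes: the LINE-1 sgRNA libraries lay above both controls in 5 of them, as for 24.6% of all, and below both in 3, as for 37.2%.

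**Figure D1:**
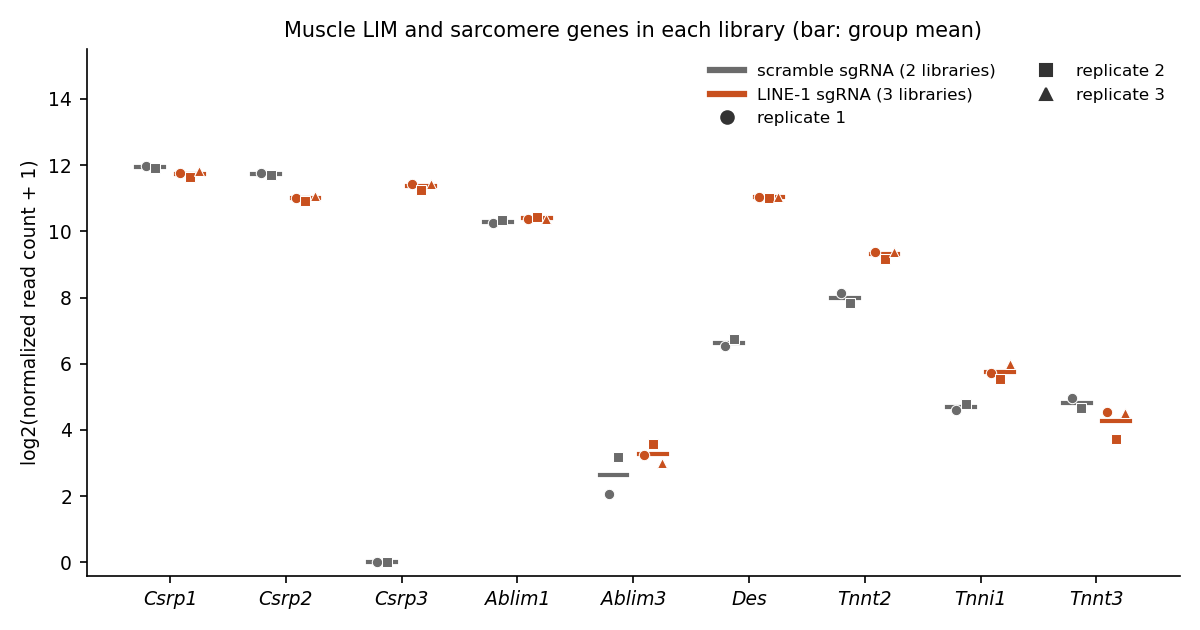
Level of each of the 9 genes as log2(normalized read count + 1), with scramble libraries in grey, LINE-1 sgRNA libraries in orange, marker shapes for replicates and a bar for each group's mean. Csrp3 lies at 0 in both scramble libraries and at 2454 to 2778 (before the log) in the 3 LINE-1 sgRNA libraries, and the groups overlap only for Ablim3.

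Csrp3 was at 0 in both scramble libraries and at 2778, 2454 and 2774 in LINE-1 sgRNA libraries 1, 2 and 3. All 3 LINE-1 sgRNA libraries were thus high, and the gene went from no read at all to 3170 to 3631 reads per library. The mean was 2669 ± 186 with LINE-1 sgRNA. If each scramble library is set to a floor of 3 reads, worth 3.21 and 2.73 normalized reads (counting error only), the mean is at least 899-fold higher. The fitted log2 change ranked 1 of 14337, but it depends on the pseudocount and is no measure of size: it was 11.38 with a pseudocount of 1 and 8.38 to 14.65 under the other settings. With LINE-1 sgRNA its level exceeded that of 76.9% of the tested genes. In bulk RNA a change in the number of cells that express a gene and a change in RNA per cell cannot be told apart. The gene spans chr7:48830398-48848033 on the minus strand (GENCODE M21, GRCm38) and overlaps no other gene of the table, as is true of all 9 genes.

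Among genes with no scramble read, no other reached a LINE-1 sgRNA level like that of Csrp3. This holds only for a cutoff of exactly 0. With few scramble reads, Spata31d1b went from a mean of 0.535 to 1065, Mcpt8 from 2.43 to 3791 and Endou from 4.04 to 1830. Both scramble libraries lacked a read for 1776 genes, and 9 of these still averaged 10 or more across all 5. Csrp3 was the only gene among them with a LINE-1 sgRNA mean of at least 1000, and Plcg2, a phospholipase of immune cell signalling, was the other with at least 100, at 120 ± 9.57. The group of 9 also held Myo18b, an unconventional myosin of striated muscle, at 46.0 ± 3.84, Fbp2, the muscle fructose bisphosphatase, at 39.5 ± 5.51, and Trim55, a sarcomere-associated ubiquitin ligase, at 22.6 ± 4.72. The rest of the group were Kcnc2 at 39.1 ± 8.69, Cnpy1 at 38.9 ± 8.45, Brinp2 at 18.3 ± 10.1 and Gm498 at 17.6 ± 5.32. The genes of this group were chosen after their values were seen.

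Csrp1 stood at 4046 and 3864 in the scramble libraries and at 3474, 3219 and 3626 with LINE-1 sgRNA. Each LINE-1 sgRNA library was below both scramble libraries, by a small margin at the closest pair. The mean went from 3955 ± 129 to 3440 ± 206, a log2 change of -0.20 (SE 0.060). This call was lost in 6 of 15 alternative settings, among them edgeR (-0.14) and DESeq2 (-0.15) on the recovered reads and the fit without scramble library 1 (-0.17).

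Csrp2 was at 3442 and 3323 in the scramble libraries and at 2058, 1916 and 2161 in the LINE-1 sgRNA libraries. The groups lay well apart, and each group varied far less than the distance between them. Its mean went from 3383 ± 84.1 to 2045 ± 123, a log2 change of -0.73 (SE 0.062), and the change stayed between -0.64 and -0.77 in all 15 alternatives. Csrp1 lies at chr1:135720061-135752232 and Csrp2 at chr10:110919789-110939622, both on the plus strand.

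Levels of different genes were compared per kilobase (kb) of exon, counting every annotated exon of a gene, merged across its transcripts. The transcripts made in these cells may be shorter, so the order of different genes depends on this choice of length. On this scale Csrp1 led the family in both groups, at 2022 ± 65.8 with scramble and 1759 ± 105 with LINE-1 sgRNA. Csrp2 went from 1558 ± 38.7 to 942 ± 56.7 per kb, and Csrp3 from 0 to 999 ± 69.6 per kb. With LINE-1 sgRNA the ranges of Csrp3 and Csrp2 overlapped across libraries, at 919 to 1040 and 883 to 996 per kb, but within each of the 3 libraries Csrp3 was the higher (1040 and 948, 919 and 883, 1038 and 996). The summed level of the 3 genes was 3580 ± 105 per kb with scramble and 3700 ± 227 per kb with LINE-1 sgRNA, and the groups overlapped. Csrp3 made up 26.7 to 27.6% of this sum in the 3 LINE-1 sgRNA libraries, while the share of Csrp2 was 43.5% with scramble and 25.5% with LINE-1 sgRNA.

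**Figure D2:**
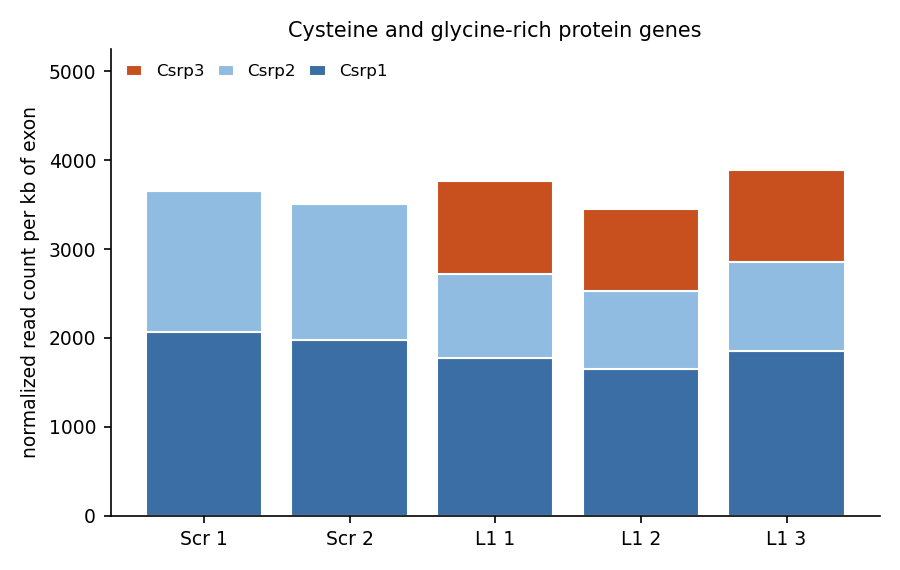
Normalized read count per kb of exon, stacked by gene, in scramble (Scr) and LINE-1 sgRNA (L1) libraries, for the 3 Csrp genes. The Csrp3 share appears in all 3 LINE-1 sgRNA libraries, where the Csrp sum lies between 3447 and 3888 per kb.

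Ablim1, the gene of an actin-binding protein with LIM and villin headpiece domains, was at 1217 and 1297 in scramble and at 1328, 1369 and 1332 in LINE-1 sgRNA libraries. The groups did not overlap, but the distance between them was small. The means were 1257 ± 56.4 and 1343 ± 22.5, a log2 change of 0.10 (SE 0.066) that was not called, except when library totals were set equal (0.18). Ablim3 was at 3.21 and 8.18 in scramble and at 8.49, 10.8 and 7.00 in LINE-1 sgRNA libraries, from 3 to 16 reads each. These overlap, and at this depth no difference was detectable for Ablim3.

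Des was at 91.0 and 107 in the scramble libraries and at 2119, 2039 and 2096 with LINE-1 sgRNA. The 3 LINE-1 sgRNA libraries lay close together and far above both scramble libraries. The mean went from 99.1 ± 11.5 to 2084 ± 41.3, which is 21.0-fold and a log2 change of 4.38 (SE 0.091), with 4.27 to 4.50 in the alternatives. It ranked 135 of the 14337 changes. Unlike Csrp3, desmin mRNA was thus present in the control cells. Synm, the gene of synemin, an intermediate filament protein that pairs with desmin, rose from 321 ± 26.9 to 1224 ± 50.2, by 1.93 (SE 0.085, limma adjusted p = 7.1e-12). Des lies at chr1:75360329-75368579 on the plus strand.

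Tnnt2, the cardiac troponin T gene that is also used in embryonic skeletal muscle, was at 281 and 226 in scramble and at 669, 574 and 663 in LINE-1 sgRNA libraries. Every LINE-1 sgRNA library lay above both controls. The mean went from 253 ± 38.3 to 635 ± 53.3, or 2.51-fold, with a log2 change of 1.33 (SE 0.11) and 1.17 to 1.48 in the alternatives. Tnni1, the slow skeletal troponin I gene, was at 23.6 and 26.4 in scramble and at 51.7, 45.3 and 63.0 in LINE-1 sgRNA libraries. Here too the groups lay apart. The mean of Tnni1 went from 25.0 ± 1.98 to 53.3 ± 8.97, or 2.14-fold, with a log2 change of 1.05 (SE 0.26) and 0.89 to 1.16 in the alternatives.

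Tnnt3, the fast skeletal troponin T gene, was at 30.0 and 24.5 in scramble and at 22.4, 12.2 and 21.9 in LINE-1 sgRNA libraries. All 3 were below both controls, yet 2 of them were close to the lower control. The means were 27.3 ± 3.84 and 18.8 ± 5.76, with a log2 change of -0.55 (SE 0.35) that was not called in any of 14 alternatives.

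The other troponin genes come from the sarcomere list. Tnnc1, troponin C of slow and cardiac muscle, rose from 44.3 ± 9.99 to 103 ± 14.3, by 1.20 (SE 0.22, limma adjusted p = 2.6e-04). Tnnt1, slow skeletal troponin T, rose from 7.33 ± 7.80 to 82.6 ± 3.31, by 3.74 (SE 0.46, limma adjusted p = 4.9e-06), and passed the filter only through the LINE-1 sgRNA libraries. Tnnc2, the fast skeletal troponin C, was at 29.0 ± 8.92 and 21.9 ± 2.96 and was not called, with a log2 change of -0.36. Tnni2, of fast muscle, had means of 11.0 and 7.33, and Tnni3, of cardiac muscle, had means of 7.17 and 9.91. Both stayed under the filter, with groups that overlap.

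Several of these genes lie near each other in the genome. Tnni1 (chr1:135779434-135810989) and Tnnt2 (chr1:135836354-135852260), both called higher, are 25.4 kb apart with 1 table gene between them, and Csrp1, called lower in the same fit, lies 27.2 kb from Tnni1. Tnnt1 and Tnni3 are 1.92 kb apart on chromosome 7, with the former called higher and the latter under the filter. Tnnt3 (chr7:142498836-142516009) and Tnni2 are 54.4 kb apart with 1 table gene between them. Tnnt3 was not called, and Tnni2 was under the filter and not tested.

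Per kb of exon, the 9 genes kept a wide order. In scramble libraries Csrp1 and Csrp2 led, followed by Ablim1 (105 ± 4.72), Tnnt2 (32.7 ± 4.94), Des (26.4 ± 3.06), Tnnt3 (17.2 ± 2.43), Tnni1 (6.93 ± 0.551), Ablim3 (1.26) and Csrp3 at 0, with no overlap between Tnnt2 and Des. In LINE-1 sgRNA libraries Des stood at 555 ± 11.0 per kb, below Csrp2 and above Ablim1, followed by Tnnt2 (82.0 ± 6.88). Tnni1 (14.8 ± 2.49) and Tnnt3 (11.9 ± 3.64) overlapped across those libraries, at 12.6 to 17.5 and 7.69 to 14.1 per kb. Within each of the 3 libraries Tnni1 was above Tnnt3, by little in library 1 (14.4 and 14.1), whereas Tnnt3 was above Tnni1 in both scramble libraries. Before division by length, Tnni1 was the higher in scramble library 2, at 26.4 and 24.5. Within its group, library 2 with LINE-1 sgRNA gave the lowest value for 7 of the 9 genes, all but Ablim1 and Ablim3, and for 40.0% of the tested genes.

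Lists of related genes were counted beside all tested genes, whose median log2 change was -0.06. These lists were chosen with earlier results known. Among sarcomere filament genes other than the 9, 31 of 49 passed the filter, and 13 were called higher and 5 lower, with a median change of 0.22. This median rests on single libraries: it was 0.48 without scramble 1, 0.04 without scramble 2, and 0.11, 0.13 and 0.49 without LINE-1 sgRNA 1, 2 and 3. It was -0.01 when a mean of at least 50 was required. The called genes divide by level: with a mean under 100, 12 of 21 were called higher and 0 lower, beside 25.7% and 3.85% of all tested genes at that level, and with a mean of at least 100, 1 of 10 was called higher and 5 lower, beside 16.3% and 30.8%. The filter admits a gene through the group where it is high: 8 of the 13 had a scramble mean under 10, and among the 22 with a scramble mean of at least 10 the calls were 5 higher and 5 lower, beside 15.6% and 26.5% of all such genes.

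**Figure D3:**
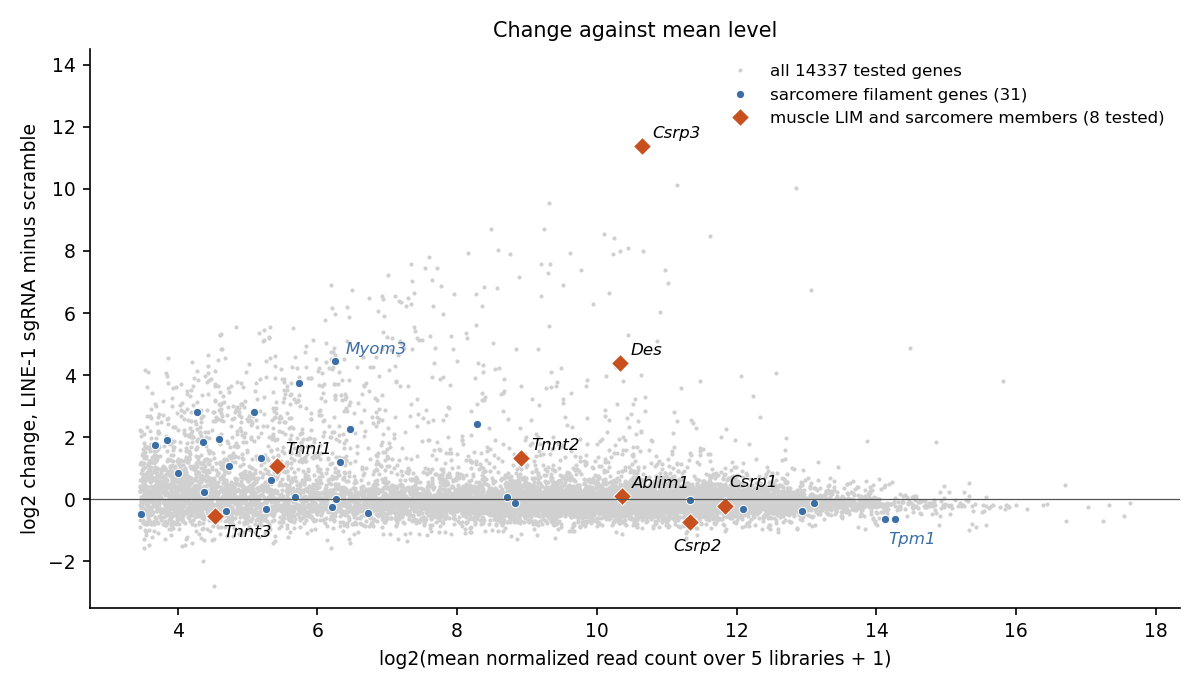
Log2 change (LINE-1 sgRNA minus scramble) against mean level, log2(mean normalized read count over 5 libraries + 1), for all tested genes (grey), sarcomere filament genes (blue) and the 8 tested muscle LIM and sarcomere genes (orange diamonds). Csrp3 has the highest point of the plot, at a height that depends on the pseudocount. Sarcomere genes of low level lie mostly above 0 while those of high level, such as Tpm1, lie mostly below it. All tested genes lean the same way, with medians of 0.22 for a mean under 100 and -0.09 for at least 100. Of the 13 sarcomere genes called higher, 8 had a scramble mean under 10.

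Myom3, a myomesin of the M-band, rose from 4.79 ± 2.23 to 122 ± 7.77, by 4.46 (SE 0.29, limma adjusted p = 1.8e-09). It passed the filter only through the LINE-1 sgRNA libraries. Of the 4 tropomyosin genes, whose products line actin filaments, 3 were called lower, beside 30.8% of all tested genes with a mean of at least 100. Tpm4 fell from 25254 ± 74.8 to 16074 ± 337, a log2 change of -0.65 (SE 0.053, limma adjusted p = 3.1e-08). Tpm1 fell from 22585 ± 480 to 14555 ± 258, a log2 change of -0.63 (SE 0.053, limma adjusted p = 4.1e-08), and Tpm3 (9196 and 8527) was not called. Tpm2, named here to complete the family, fell from 9144 ± 760.0 to 7018 ± 412, a log2 change of -0.38 (SE 0.063, limma adjusted p = 1.1e-04).

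Of 45 other LIM domain genes of the cytoskeleton, 42 were tested, with 11 called higher and 16 lower (26.2% and 38.1%, beside 18.2% and 25.4% of all tested genes). The median of this list was -0.09 (-0.04 without scramble 1, -0.13 without scramble 2). The list includes Micall1, which rose by 0.81 (SE 0.050, limma adjusted p = 9.0e-10, 3772 to 6615), Micall2, by 0.76 (SE 0.056, limma adjusted p = 8.1e-09), and Pxn, the focal adhesion adaptor paxillin, by 0.51 (SE 0.052, limma adjusted p = 5.0e-07). Lasp1, an actin-binding LIM protein gene, was the most abundant that was not called, at 6285 and 5819. Of 43 Z-disc and costamere genes 36 were tested, with 9 called higher and 12 lower (25.0% and 33.3%, beside the same 18.2% and 25.4%). Their median change was -0.04. The median ran from -0.15 without scramble 1 to -0.02 without LINE-1 sgRNA 1 and was 0.04 with equal library totals. Without a variance trend 6 of the 36 were called lower, beside 2332 of all 14337 tested genes. Beside Synm, Trim55 went from 0 in both scramble libraries to 22.6 ± 4.72 (limma adjusted p = 2.9e-06), at least 7.60-fold over the floor of 3 reads per library. Trim55 passed the filter only through the LINE-1 sgRNA libraries. Ankrd1, a titin-binding stress protein, fell from 3896 ± 36.6 to 2648 ± 41.5 (-0.56, SE 0.053, limma adjusted p = 2.3e-07), Vcl, vinculin, fell from 14995 ± 647 to 10839 ± 256 (-0.47, SE 0.053, limma adjusted p = 1.9e-06), and Flnc, filamin C, was not called at 21566 and 22451.

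Among 19 tested of 23 calcium handling genes, 5 were called higher and 5 lower (26.3% each, beside 18.2% and 25.4% of all tested genes), with a median of -0.11. The median was -0.07 without scramble 1 and -0.29, -0.20 and -0.22 without LINE-1 sgRNA 1, 2 and 3, and it was -0.44 with a mean of at least 50 and 0.03 with no filter. Ryr1, the calcium release channel of skeletal muscle, rose from 86.7 ± 30.3 to 616 ± 53.8, by 2.85 (SE 0.17, limma adjusted p = 3.4e-10). Its cardiac relative Ryr2 rose from 2.97 ± 0.343 to 18.4 ± 7.85, by 2.20 (SE 0.50, limma adjusted p = 0.0018). Ryr2 passed the filter only through the LINE-1 sgRNA libraries. Cacna1c, the L-type calcium channel of heart and smooth muscle, fell from 5943 ± 17.6 to 3248 ± 493, a change of -0.88 (SE 0.086, limma adjusted p = 2.8e-07). Asph, aspartate beta-hydroxylase with its junctin product, fell from 5613 ± 253 to 3863 ± 89.1 (-0.54, SE 0.054, limma adjusted p = 3.9e-07), and Atp2a2, the calcium pump SERCA2, was not called at 12473 and 11519.

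Transcription factors known to drive muscle genes were counted the same way. Of 28 such genes with values, 16 were tested, with 2 called higher and 6 lower, beside 18.2% and 25.4% of all tested genes. The 15 with a mean of at least 100 gave 2 calls higher and 6 lower. Of all tested genes at that level, 16.3% were called higher and 30.8% lower. The median of the 16 was -0.16 (-0.25 without scramble 1, -0.08 without scramble 2), with no change past 0.58 in either direction. Six4 (-0.41, limma adjusted p = 3.8e-04), Mkl1, an SRF coactivator (-0.31, limma adjusted p = 5.7e-04), and Vgll3 (-0.29, limma adjusted p = 7.5e-04) fell, while Mef2a was not called at 3356 and 3329. Myf5 and Myf6 had no read in any library, and Myod1 (4.58 and 4.15), Myog (0.535 and 2.32) and Myocd (0.990 and 2.51) stayed under the filter. Smooth muscle contractile genes gave 1 call higher and 9 lower among 21 tested of 24, beside 18.2% and 25.4% of all tested genes, with a median of -0.16. All 9 had a mean of at least 100, making 47.4% of 19, beside 30.8% of all tested genes at that level. The 9 were 4 without a variance trend and 5 with TMM, equal totals, edgeR or DESeq2. Genes called lower among all 14337 also went down, from 3637 to 2332, 2620, 2136, 2583 and 2430 in the same order. The call higher was Susd5, which is not itself a contractile protein gene and went from 0.909 to 63.7 ± 18.0 (limma adjusted p = 8.4e-08). Susd5 passed the filter only through the LINE-1 sgRNA libraries. Cnn2, a calponin (-0.51, limma adjusted p = 3.7e-07), Acta2, smooth muscle actin (-0.40, limma adjusted p = 2.1e-05), and Myl12a, a regulatory myosin light chain (-0.34, limma adjusted p = 2.9e-04), fell, while Myh9 was not called at 41468 and 39885.

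**Figure D4:**
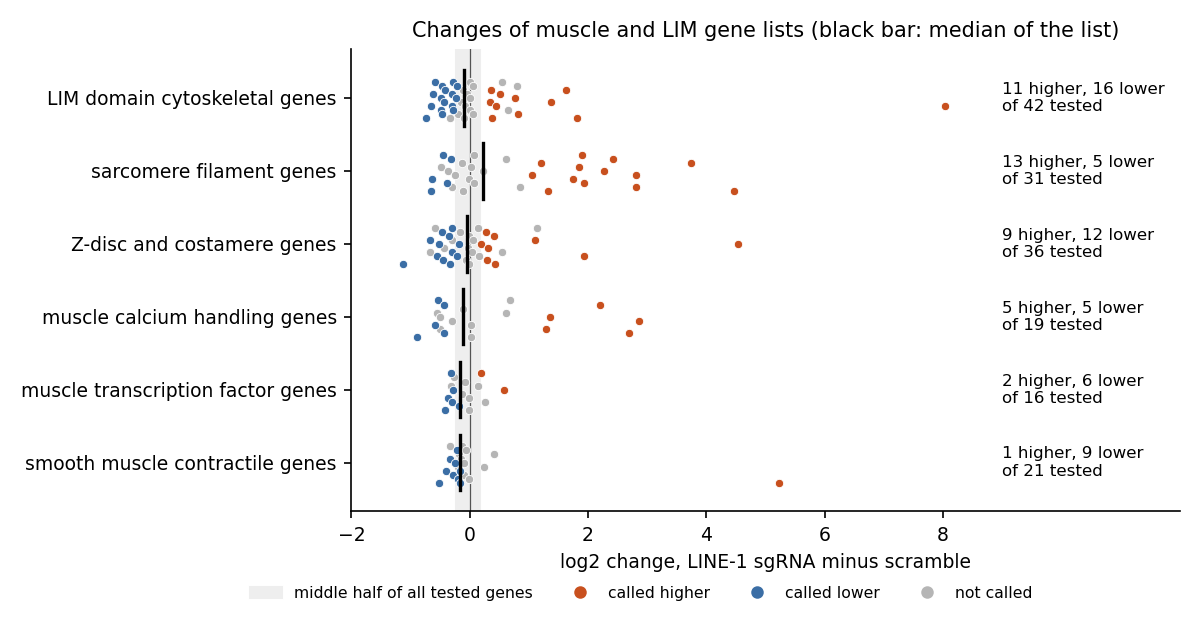
Log2 change (LINE-1 sgRNA minus scramble) of each tested gene in 6 lists, coloured by its call in the fit of all genes, with a black bar at each list's median and a grey band over the middle 50% of all tested genes. The median of the sarcomere filament list, 0.22, ran from 0.04 to 0.49 on leaving out 1 library and was -0.01 with a mean of at least 50, and its points reach 4.46, while the transcription factor list stays within 0.58 of 0.

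Markers of cell types were summed per library. The 12 fibroblast markers summed to 726667 to 785689 with scramble and 517071 to 540675 with LINE-1 sgRNA. They remained the highest of the 6 sums in every library. Of the 12, 9 were called lower, beside 30.8% of all tested genes with a mean of at least 100. The 10 skeletal muscle markers summed to 166 to 193 and 151 to 173, with 4 tested and 0 called in limma. Of all tested genes with a mean under 100, 25.7% were called higher and 3.85% lower. The 10 cardiac markers summed to 696 to 712 and 851 to 1167. Of 6 tested, 4 were called higher (Myh6, Nppb, Myl7 and Ryr2), beside 18.2% of all tested genes. Of these 4, Myh6 and Ryr2 passed the filter only through the LINE-1 sgRNA libraries. Among all 638 tested genes with a scramble mean under 10, 465 were called higher. Without Nppb the other 9 cardiac markers summed to 681 and 671 with scramble and to 674, 512 and 693 with LINE-1 sgRNA. The groups thus overlapped. Nkx2-5, which holds most of that sum without Nppb and was singled out after its values were seen, was at 621 and 505 and was not called (-0.32, limma adjusted p = 0.062), and the cardiac actin gene Actc1 was at about 1.98 and 1.96. The 8 smooth muscle markers summed to 36792 to 38295 and 28425 to 30493, the 8 leukocyte markers to 1152 to 1170 and 1192 to 1282, and the 8 epithelial markers to 78.2 to 96.4 and 81.0 to 98.0. No marker in these lists was at 0 in every library. The part of other cell types in the values of Csrp3, Des and the troponins was not tested.

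The genes next to Csrp3 did not follow it in size. Zdhhc13, a palmitoyltransferase gene 2.96 kb away, was at 925 ± 64.1 and 998 ± 73.4 and was not called (0.11). E2f8, a cell cycle repressor gene 18.4 kb away, was at 911 ± 103 and 1048 ± 50.1 (0.21, SE 0.082, limma adjusted p = 0.051), and it passed in 9 of 15 alternatives. Nav2, a neuron navigator gene 60.7 kb away, rose from 3472 ± 11.3 to 4670 ± 494, by 0.42 (SE 0.070, limma adjusted p = 1.1e-04). Mrgprb3, Mrgprb2 and Dbx1, the next genes outward at 187, 272 and 783 kb, were under the filter. Speg, 6.72 kb from Des and itself a striated muscle kinase gene, was at 2741 and 2790 and was not called, and is named here after its values were seen.

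Over all 9 genes, 37 of 44 neighbours were tested, with 10 called higher and 9 lower (27.0% and 24.3%, beside 18.2% and 25.4% of all tested genes). The median of the neighbours was 0.02, which ran from -0.04 to 0.11 over the alternatives. The neighbours called with a log2 change of at least 1 were Igfn1 (3.34 to 78.9, 4.26), an immunoglobulin-fold protein gene of muscle, Afap1l2 (3.42 to 38.2, 3.13), Syt1 (6.69 to 64.6, 3.12), Asic4 (10.7 to 33.0, 1.52) and Lad1 (7.46 to 20.3, 1.28). All of these but Asic4 passed the filter only through the LINE-1 sgRNA libraries. Igfn1 lies 101 kb from Tnnt2, Afap1l2 24.5 kb from Ablim1, Asic4 81.9 kb from Des and Lad1 3.01 kb from Tnnt2. Syt1 is much farther from its member, at 1909 kb from Csrp2. The call of Lad1, which lies between Tnni1 and Tnnt2, was lost with DESeq2, without scramble library 2 and without LINE-1 sgRNA library 1, at log2 changes of 1.51, 1.10 and 1.02.

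**Figure D5:**
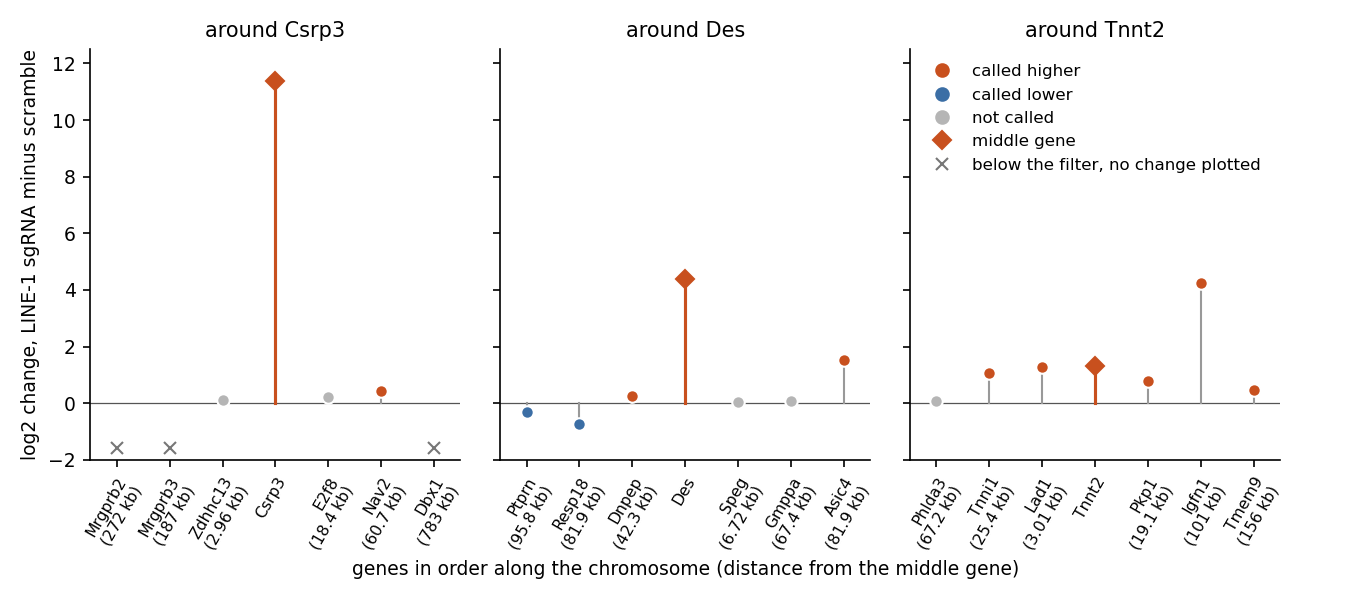
Log2 change (LINE-1 sgRNA minus scramble) of Csrp3, Des and Tnnt2 (diamonds) and of the 3 nearest genes of the table on each side, in order along the chromosome, with crosses for genes under the filter. Every neighbour of Csrp3 that was tested lies at or under 0.42, and Speg beside Des was not called.

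The genes most like Csrp3 over the 5 libraries, by Euclidean distance of log2(value + 1), were Spata31d1b (2.53), Mcpt8, a mast cell protease family gene (2.67), Kynu, kynureninase (3.08), Endou (3.41) and Adam3, a sperm surface protein gene (3.72). Each had a scramble mean of at most 5.03, and their LINE-1 sgRNA means ran from 1013 for Kynu to 3791 for Mcpt8. They lie on chromosomes 13, 14, 2, 15 and 8, none of them on chromosome 7 with Csrp3. None is a muscle gene of the lists above.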

How the data were processed

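The deposited workbook gives normalized read counts per gene symbol and library, a signal made by the authors. Builds GRCm38 and mm10, and the tools DESeq2, SAMtools 1.9, bedtools 2.27.1, Bowtie2 2.2.9 and STAR 2.5.3a, are listed per the submitters' processing notes. What each tool did, the counting rule and whether strand was used: not given in the sources used here. Within each library 100% of the deposited values were whole multiples of 1 step (within 0.0001 reads), so whole reads were recovered. Without known strand, reads of antisense genes cannot be told apart.

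Log2(value + 1) was fitted in R 4.3.3 with limma 3.58.1 (variance trend, two-sided, Benjamini-Hochberg over 14337 genes with a mean of at least 10), without further scaling. Alternatives were pseudocounts of 0.5 and 8, no filter or a mean of at least 50, no variance trend, TMM or equal totals, edgeR 4.0.16 and DESeq2 1.42.0 on recovered reads, a replicate block and leaving out each library. edgeR called 5622 genes and DESeq2 5238. The code of the fits was run on simulated counts with known folds and the same fixed dispersion for every gene. This checks the code and says nothing on the calls in the real libraries. Positions and exon lengths came from GENCODE M21 (GRCm38), with 21158 symbols matched to 1 position. Python 3.11.15 with pandas 2.3.3 and matplotlib 3.10.9 was used for summaries.

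The members, lists and tests were chosen with earlier results of these data known. Named genes are the members, up to 4 called genes with the smallest p and the most abundant uncalled gene of each list, all 3 neighbours on each side of Csrp3, called neighbours of the others with a change of at least 1, and the 5 genes most like Csrp3; 3 genes that this rule names are not reported here. The tables of endogenous retroviruses and repeats were not used here.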

Additional observations from a re-analysis of the deposited data

How the results depend on the processing

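The signs of the log2 changes of the 8 tested members, and the calls of Csrp2, Csrp3, Des, Tnnt2 and Tnni1, held in each alternative that tested them; Tnni1 and Tnnt3 drop out with a mean of at least 50, which leaves 3 members called higher. The split of all calls moved with the scaling: 2606 genes were higher and 3637 lower as reported (41.7% higher), against 53.2% higher with TMM, 60.6% with equal totals (2136 lower), 54.1% with edgeR and 53.6% with DESeq2. Without a variance trend 2332 genes were lower. Members called lower were 1 instead of 2 without a trend, with TMM, equal totals, edgeR and DESeq2, always through the loss of Csrp1. With a mean of at least 50, sarcomere genes called higher were 5, calcium handling genes 2 and smooth muscle genes 0. Counting only genes with a scramble mean of at least 10, a rule chosen after seeing the data, gave 5, 2 and 0 for the same lists and 6 for neighbouring genes. Without a trend, calcium handling genes called higher were 3, Z-disc genes lower 6 and smooth muscle genes lower 4, and the last were 5 with TMM, equal totals, edgeR and DESeq2. The causes were not tested beyond the smaller number of genes under a stricter filter.

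Leaving out 1 library at a time gave 2239 to 2464 genes higher and 2852 to 3459 lower. It gave 1 to 2 members lower (1 without scramble library 1), 3 to 4 calcium handling genes higher (3 when scramble 1, LINE-1 sgRNA 1 or LINE-1 sgRNA 2 was dropped) and 1 to 2 transcription factors higher (1 when scramble 1 or LINE-1 sgRNA 3 was dropped). A group left with 1 library is assumed to vary like the other.

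Same-numbered libraries did not deviate together (correlations of -0.0080 and 0.066 over 14337 genes, 2 pairs), so the numbers were not taken as a pairing. With the replicate block 2667 genes were higher and 3906 lower. With 2 scramble libraries the spread of that group rests on 1 degree of freedom, and genes of a few reads, such as Ablim3, are limited by depth.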
